A study of Mus musculus with 9 samples.

Results

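The enzymes of glycolysis, of pyruvate entry into the mitochondrion and of the citric acid cycle were examined in mouse hippocampus. They were chosen as a list of 45 genes: the isozymes of each glycolytic step from hexokinase to pyruvate kinase, lactate dehydrogenase, the subunits and regulatory kinases of the pyruvate dehydrogenase complex, pyruvate carboxylase, the cycle enzymes and the aspartate aminotransferases. All probes of these genes were taken, by the annotated or the current symbol. A named probe was found for 41 of them, out of 16637 genes named on the array, and 4 (Aldoa, Eno1, Ldhb and Pdp1) had none. The 41 genes had 52 probes: 31 genes had 1 probe, 9 had 2 and Gpi1 had 3.

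The samples were 8 female mice, 2 per group, with RNA of one hippocampus amplified and hybridised in pairs to 9 two-colour arrays. The WT mice were of a 129SV with C57BL6 background, and the 3xTG mice carried, as the labels spell it, B6;129Psen1tm1Mpm Tg (APPSwe,tauP201L) 1Lfa; both genotypes were taken at 3 and at 12 months of age. The 3xTG line is a model of Alzheimer's disease with a mutant presenilin allele in every cell and transgenes for mutant human amyloid precursor protein and tau, which in this line are driven by a neuronal Thy1 promoter element (background knowledge; the labels name no promoter). The 3 comparisons had 3 arrays each: WT at 12 over WT at 3 months (ageing in WT), 3xTG over WT at 3 months, and 3xTG over WT at 12 months. Every array pairs 1 test with 1 reference mouse, and in each comparison 1 test and 1 reference mouse recur on 2 of the 3 arrays, so these are not 3 independent pairs. By the submitters' count 6 arrays are biological replicates and the other 3 technical. The ageing comparison shares its WT mice of 3 months with the first genotype comparison and its WT mice of 12 months with the second, while the 2 genotype comparisons share no mouse.

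Each value is a log2 ratio of the test over the reference mouse, so it says nothing about the level of a gene, and the labelled tissue could not be checked against the levels of its markers. The deposited ratios hold no value between -0.5 and 0.5, and 45.7% to 54.1% of the 29922 probes had a value on a given array. The array medians ran from -1.71 to 2.34, and every array was therefore centred on its own median before probes of a gene were averaged. After centring, the range with no listed value is off the median. It lies between -2.84 and -0.34 over the 3 ageing arrays and replicates 1 and 3 at 3 months. On replicate 2 at 3 months and the 3 arrays at 12 months it lies between 0.34 and 2.21. A value that an array does not list may lie in that range, but why values are missing is not stated. The log base and the direction of the ratio are not stated with the values; base 2 and test over reference were assumed. The 6 pairs of arrays of a comparison with opposite dyes correlated at 0.197 to 0.308 over all probes when read this way. The pair with the same dyes correlated at 0.276 for ageing, 0.314 at 3 months and 0.308 at 12 months. Ageing arrays correlated at 0.094 to 0.146 with those of 3 months, which share their reference mice. With those of 12 months, whose reference mice are the test mice of ageing, they correlated at -0.16 to -0.073. The other reading is Cy5 over Cy3, which turns the sign for every pair with opposite dyes. Which reading holds was not tested further. In RNA from whole tissue, fewer cells of a type and less RNA per cell cannot be told apart.

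Glycolysis splits glucose into pyruvate in the cytosol and yields ATP quickly; lactate dehydrogenase interconverts pyruvate and lactate. Pyruvate enters the mitochondrion through the MPC carrier and is turned into acetyl-CoA by the pyruvate dehydrogenase complex, made of E1 (Pdha1, Pdhb), E2 (Dlat), E3 (Dld) and the E3-binding protein (Pdhx); the kinases of the Pdk family phosphorylate E1 and switch the complex off. The citric acid cycle oxidises acetyl-CoA and feeds NADH to the respiratory chain, which carries most of the ATP supply of neurons, while astrocytes are known for a higher glycolytic share and supply lactate.

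Of the genes of the list, 7 had a value on all 6 genotype arrays, as did 1135 genes in all. Read as test over reference, 23.0% of the 1135 were above the array median on all 6. As deposited 19.3% were above 0 on all 6, and 10.4% when arrays were centred on abundant transcripts. The share above in all 3 ways at once was not counted. Of the 7 genes, 3 were above in all 3 ways. They were Pdha1 (the catalytic alpha subunit of E1) and Pgam1 (phosphoglycerate mutase, which moves the phosphate of 3-phosphoglycerate before the enolase step). The other was Idh3b (a subunit of the NAD-dependent isocitrate dehydrogenase). On 4 of these arrays the test RNA is in Cy3, so in the reading as Cy5 over Cy3 the same values are below the median on those 4 arrays and above it on the other 2, and the fitted values at 3 and 12 months were 0.48 and 0.095 for Pdha1, 1.39 and -0.10 for Pgam1 and 0.15 and -0.33 for Idh3b. The 150 bases before the start of transcription are shown for them because the results below turn on these genes. The sequences are RefSeq's for GRCm38.p6, 5′ to 3′ on the strand of the gene, with the letters of any searched motif in capitals. Pdha1 lies on the minus strand at chrX:160138431-160138580, Pgam1 on the plus strand at chr19:41911721-41911870 and Idh3b on the minus strand at chr2:130284452-130284601.
Pdha1: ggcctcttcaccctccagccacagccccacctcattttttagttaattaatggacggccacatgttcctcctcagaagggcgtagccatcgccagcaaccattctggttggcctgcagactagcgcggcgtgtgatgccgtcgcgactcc
Pgam1: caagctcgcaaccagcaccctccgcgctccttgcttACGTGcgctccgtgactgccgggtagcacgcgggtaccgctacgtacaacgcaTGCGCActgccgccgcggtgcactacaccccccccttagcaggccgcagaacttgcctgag
Idh3b: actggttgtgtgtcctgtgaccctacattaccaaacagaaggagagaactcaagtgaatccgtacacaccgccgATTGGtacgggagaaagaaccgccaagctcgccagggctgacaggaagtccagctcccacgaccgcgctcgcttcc
The motifs searched on either strand were AAGGTCA (bound by oestrogen-related receptors), CACGTG (E-box), ACGTG (the core of the hypoxia response element, also contained in the E-box), TGCGCA (part of the NRF1 site), CCAAT and GGGCGG (GC box). Pgam1 holds ACGTG starting 114 bases and TGCGCA 61 bases before its start, Idh3b holds ATTGG, the reverse complement of CCAAT, 76 bases before it, and none of the 6 was found in the bases shown for Pdha1. These bases hold 9 CpG pairs in Pdha1, 17 in Pgam1 and 10 in Idh3b, against a median of 4 over all 32851 promoters of the table and 9 over the promoters of the listed genes. Over the full 300 bases of the table, 43 of the 45 genes had an entry, with 63 promoters. ACGTG was in 38.1% of these promoters against 19.6% of all, TGCGCA in 17.5% against 7.76%, GGGCGG in 55.6% against 35.7%, CCAAT in 50.8% against 37.4%, CACGTG in 11.1% against 7.15% and AAGGTCA in 6.35% against 4.72%. These shares are a description of letters, with no test.

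The genes were listed unevenly. Only Gpi1, Pgam1, Pdhb and Idh3b had a value on all 9 arrays, and 20 of the 41 met the condition for the fit, a value on at least 2 of the 3 arrays of every comparison, as did 3944 genes in all. The other 21 are described by their array values. limma, with Benjamini-Hochberg adjustment over the 3944 genes, called 0 genes at an adjusted p of 0.05 in each comparison, so 0 of the 20 passed and the share called was 0.0%. At an unadjusted p under 0.05 it had 558, 665 and 716 genes in the order of the comparisons above.

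**Figure D1:**
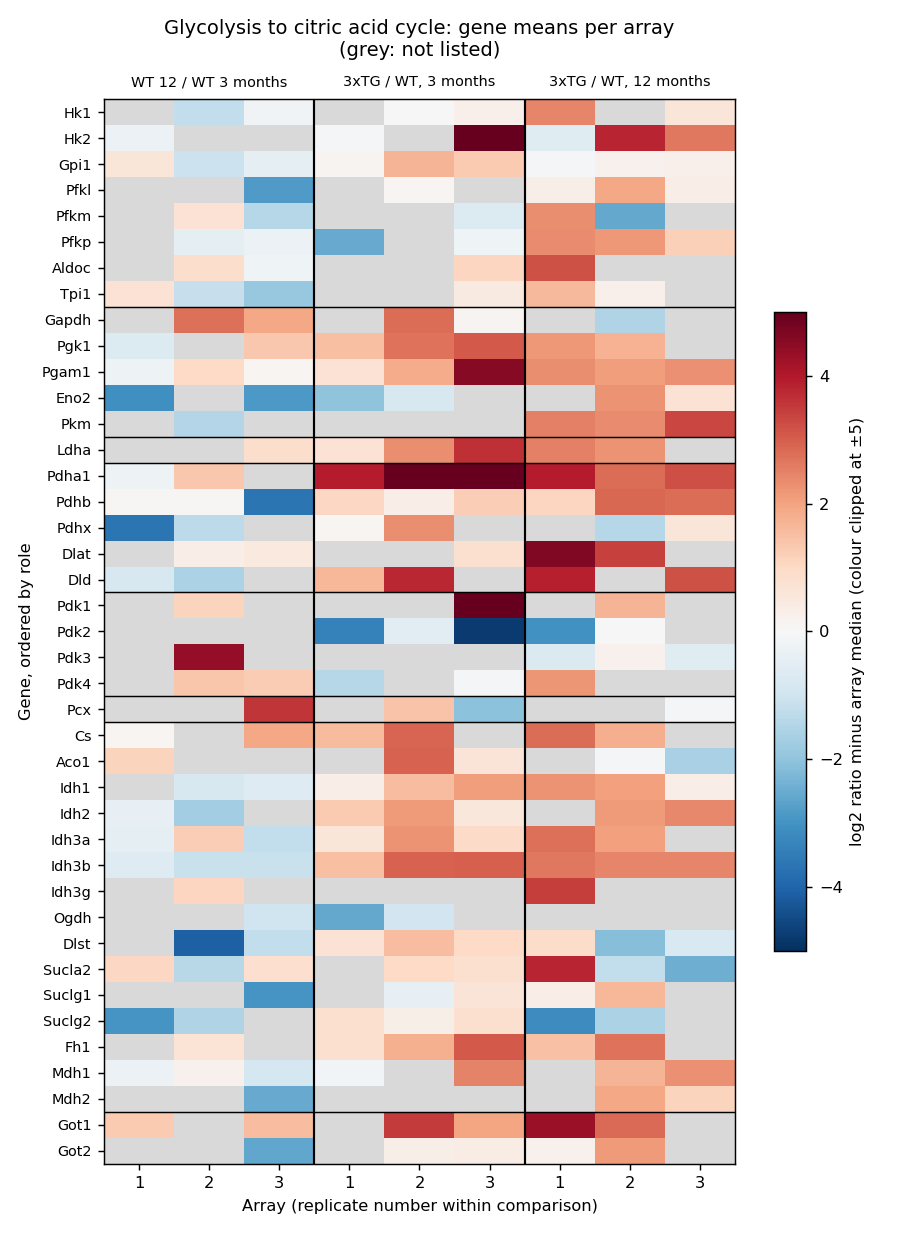
Centred log2 ratio of each gene (rows, ordered by role) on each of the 9 arrays (columns, 3 per comparison); colour gives the ratio of test over reference, and a grey cell is a gene with no listed value. Of the listed genes, 69.6% to 83.9% lie above the array median on the 6 genotype arrays and 35.7% to 51.9% on the 3 ageing arrays. Over all genes the shares are 50.2% to 54.9% and 47.5% to 48.2%.

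At 3 months, genes of these pathways lay mostly higher in 3xTG than in WT relative to the array median, but none passed the test. The median of the 20 fitted genes was 1.21 (log2), with 18 above and 2 below 0, beside a median of 0.12 and 52.9% above 0 over all 3944 genes. By array the median over the listed genes was 0.71, 1.74 and 0.97 (mean 1.14 ± 0.54, SD, n = 3 arrays), over 23, 28 and 31 genes. Of the 14 genes listed on all 3 arrays, 13 were above the array median on each, where 28.4% of 3290 genes did so, and Pdk2 was below it on each, where 19.8% did.

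In the upper steps of glycolysis, which spend ATP to prime glucose, values at 3 months were small or scattered. Gpi1, which converts glucose 6-phosphate to fructose 6-phosphate, was at 0.15, 1.71 and 1.29 on replicates 1 to 3. All 3 arrays were above the median, and limma gave 1.11 ± 0.74 (SE, adjusted p = 0.463). Its 3 probes did not agree on replicate 2, at 1.51, 4.06 and -0.45. Hk1, the hexokinase that dominates in brain, was at -0.01 and 0.26 on replicates 2 and 3. Hk2, the inducible hexokinase, was at -0.06 on replicate 1 and at 5.43 on replicate 3, the widest gap of any gene of these steps. Pfkp, the platelet-type subunit of phosphofructokinase, was at -2.51 and -0.23 on replicates 1 and 3. Pfkl and Pfkm, the liver and muscle types, had 1 value each, at 0.10 and -0.70. Aldoc, the brain aldolase found mainly in astrocytes, and Tpi1, triose phosphate isomerase, also had 1 value each, at 1.06 and 0.46.

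Of the 3 fitted genes of the lower steps, which yield ATP, Pgam1 and Pgk1 were above 0 at 3 months and Eno2 below. Pgam1 was at 0.71, 1.85 and 4.57, all above the median and with replicate 3 far above the others, and the fit gave 2.56 ± 0.84 (SE, limma adjusted p = 0.186). Pgk1, phosphoglycerate kinase, was at 1.52, 2.71 and 3.08, again all above, with a fit of 2.39 ± 0.86 (SE, limma adjusted p = 0.226). Ldha, the lactate dehydrogenase subunit of glycolytic tissues, was at 0.72, 2.31 and 3.64 (mean 2.22 ± 1.46, SD, n = 3); it was not fitted. In each of these 3 genes replicate 1 was the lowest and replicate 3 the highest. Eno2, the neuronal enolase, went the other way, at -2.02 and -0.81 on replicates 1 and 2, with a fit of -1.84 ± 1.24 (SE, limma adjusted p = 0.483). Gapdh, which oxidises glyceraldehyde 3-phosphate, was at 2.81 and 0.12 on replicates 2 and 3, and Pkm, pyruvate kinase, had no value at 3 months.

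In the pyruvate dehydrogenase complex the 4 fitted genes were above 0 at 3 months, with a median of 1.96. Pdha1 was at 3.92, 5.10 and 6.47 at 3 months, every array far above the median, and the fit gave 5.22 ± 0.85 (SE, limma unadjusted p = 0.000139, adjusted p = 0.0798). The gene has 1 probe. Its call depends on the model: without the dye term the limma adjusted p was 0.0361, with arrays taken as independent 0.0406, and with the trended robust variance 0.0307. Over the alternatives that keep the direction of the ratio its value ran from 4.13 to 5.79. Read as Cy5 over Cy3 it was 0.48 ± 1.35 (SE, limma unadjusted p = 0.729), and 0.69 with no centring as well.
Pdhb, the beta subunit of the same enzyme, was at 1.05, 0.35 and 1.22, above the median on every array but far below Pdha1, and the fit gave 1.07 ± 0.91 (SE, limma adjusted p = 0.571). Its 2 probes disagreed on replicate 2, at 2.58 and -1.89. Dld, the E3 subunit that other dehydrogenase complexes share, was at 1.65 and 3.78 on replicates 1 and 2 and was fitted at 2.68 ± 1.32 (SE, limma adjusted p = 0.356). Pdhx was at 0.09 and 2.32, and Dlat, E2, had 1 value of 0.81. All 11 values of the complex at 3 months lay above the array median.

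None of the kinases of the complex could be fitted, and their values at 3 months lay on both sides of the median. Pdk2, the most widely expressed of them, was at -3.39, -0.53 and -4.77 at 3 months, below the median on all 3 arrays (mean -2.90 ± 2.16, SD, n = 3). Pdk4, known for its induction in fasting, was at -1.43 and -0.08 on replicates 1 and 3. Pdk1, a hypoxia target, had 1 value, of 5.62 on replicate 3. Pdk3 had no value. Pcx, pyruvate carboxylase, which makes oxaloacetate from pyruvate mainly in astrocytes, was at 1.41 on replicate 2 and -2.04 on replicate 3.

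The list of cycle enzymes also holds the cytosolic forms Aco1, Idh1 and Mdh1, which work outside the mitochondrion. Of this list all 9 fitted genes, Idh1 and Mdh1 among them, were above 0 at 3 months, with a median of 1.17. Idh3b was at 1.51, 2.93 and 2.98, all above the array median, and the fit gave 2.51 ± 0.72 (SE, limma unadjusted p = 0.00541, adjusted p = 0.166). Idh3a, its catalytic partner subunit, was lower at 0.61, 2.24 and 0.97, with a fit of 1.17 ± 0.86 (SE, limma adjusted p = 0.512), and Idh3g had no value. Idh2, the mitochondrial NADP-dependent enzyme, was at 1.30, 2.11 and 0.55, and Idh1, its cytosolic counterpart, at 0.33, 1.56 and 2.08. All 6 of these values were above the median, and the fits were 1.27 ± 0.82 and 1.26 ± 0.82 (SE), with limma adjusted p-values of 0.462 and 0.46. Fh1, fumarate hydratase, was at 0.82, 1.78 and 3.05 (mean 1.88 ± 1.12, SD, n = 3) and was not fitted. Dlst and Suclg2 were above the median on every array too, with means of 1.10 ± 0.41 and 0.64 ± 0.29 (SD, n = 3). Cs, citrate synthase, which opens the cycle, was at 1.57 and 2.92. Ogdh, the rate-limiting E1 of the oxoglutarate dehydrogenase complex, stood apart at -2.56 and -0.95. The remaining values of this list at 3 months were those of Aco1 (2.95 and 0.65), Sucla2 (0.98 and 0.82), Suclg1 (-0.42 and 0.66) and Mdh1 (-0.12 and 2.47), and Mdh2 had none. Got1, the cytosolic aspartate aminotransferase of the malate-aspartate shuttle, was at 3.48 and 1.99, with a fit of 2.74 ± 1.02 (SE, limma adjusted p = 0.254), and Got2, the mitochondrial form, at 0.30 and 0.38. At an unadjusted limma p under 0.05, 5 of the 20 genes were above 0 (Pgk1, Pgam1, Pdha1, Idh3b and Got1) and none below, where the shares over all genes were 10.5% and 6.31%.

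**Figure D2:**
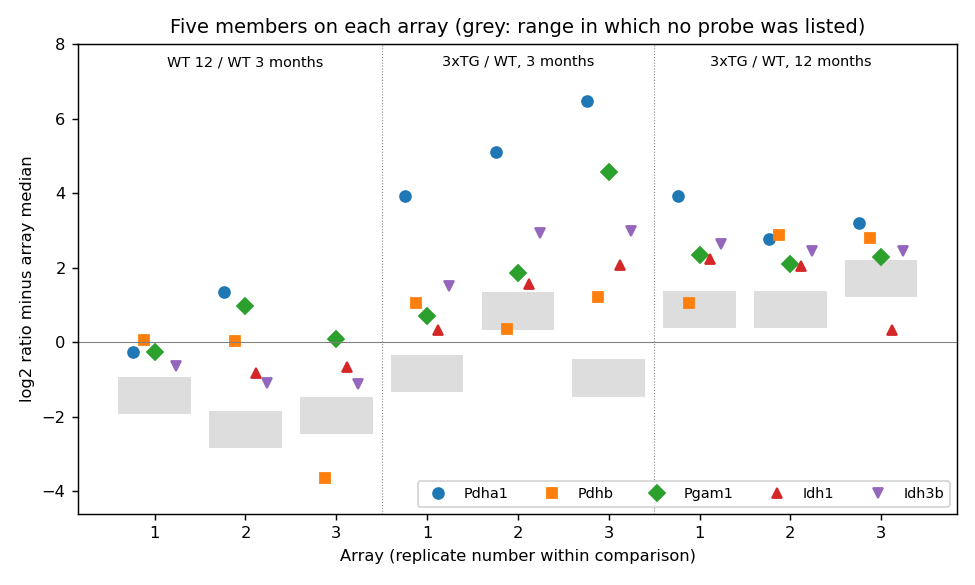
Centred log2 ratio on each of the 9 arrays for the 5 genes above the array median on all 6 genotype arrays (Pdha1, Pgam1, Pdhb, Idh1 and Idh3b), points by comparison; grey bands are the ranges in which no probe was listed. Gene means of several probes can fall inside a band. Pdha1 runs from 2.78 to 6.47 on the genotype arrays and is at -0.27 and 1.34 on its 2 ageing arrays.

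At 12 months the genes of these pathways again lay mostly higher in 3xTG than in WT relative to the array median, and again none passed the test. The median of the 20 fitted genes was 1.85, with 16 above and 4 below 0, beside 0.48 and 60% above 0 over all 3944 genes. By array the median was 2.31, 1.93 and 0.93 (mean 1.72 ± 0.71, SD, n = 3 arrays), over 31, 34 and 22 genes. Of the 13 genes listed on all 3 arrays, 8 were above the array median on each, where 30.4% of 3334 genes did so, and none below on each, where 16.3% did. On these arrays the range with no listed probe lies above the median, from 0.37 to 1.37 on replicates 1 and 2 and from 1.21 to 2.21 on replicate 3.

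Upper glycolysis lay above the median here, with array medians from 0.60 to 1.96. Pfkp was at 2.36, 2.16 and 1.21, all above, and the fit gave 1.94 ± 0.86 (SE, limma adjusted p = 0.277). Pfkl was at 0.28, 1.93 and 0.34, above on each array but close to the median on 2 of them; it was not fitted. Pfkm split, at 2.31 on replicate 1 and -2.57 on replicate 2. Gpi1 was at -0.06, 0.21 and 0.27, around the median on every array, with a fit of 0.23 ± 0.74 (SE, limma adjusted p = 0.903). Hk1 was at 2.43 and 0.60 on replicates 1 and 3, and Hk2 at -0.62, 3.79 and 2.65, with replicate 1 on the other side from the rest. Aldoc had 1 value, of 3.19, and Tpi1 was at 1.62 and 0.26, with its 2 probes at 2.30 and -1.78 on replicate 2.

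The lower steps had array medians close together, from 2.10 to 2.33. Pgam1 was at 2.33, 2.10 and 2.28 at 12 months (mean 2.24 ± 0.12, SD, n = 3), all above the median, the last of them just past the range with no listed probe. Its fit was 2.40 ± 0.84 (SE, limma unadjusted p = 0.0165, adjusted p = 0.167). Pkm, deposited under its older symbol Pkm2, was at 2.51, 2.35 and 3.34 (mean 2.74 ± 0.53, SD, n = 3) and had 1 ageing value, of -1.47, and none at 3 months, so it could not be fitted. Pgk1 was at 2.15 and 1.75 and Ldha at 2.51 and 2.26, on replicates 1 and 2. Eno2, below the median in the other comparisons, was at 2.23 and 0.74 on replicates 2 and 3, with a fit of 1.48 ± 0.96 (SE, limma adjusted p = 0.457). Gapdh had 1 value, of -1.50, the sole value of the lower steps below the median at 12 months.

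The pyruvate dehydrogenase complex had array medians of 3.91, 2.82 and 2.99 at 12 months and a fitted median of 2.93. Pdha1 was at 3.92, 2.78 and 3.21, all above the median, and the fit gave 3.33 ± 0.85 (SE, limma unadjusted p = 0.00319, adjusted p = 0.145). Pdhb was at 1.06, 2.87 and 2.79, also all above, with a fit of 2.53 ± 0.91 (SE, limma adjusted p = 0.171); on replicate 1 its probes were at 2.25 and -0.13. Dld was at 3.90 and 3.19, with a fit of 3.51 ± 1.07 (SE, limma adjusted p = 0.161). Dlat was at 4.62 and 3.41 on replicates 1 and 2. Pdhx differed from the enzyme subunits, at -1.44 and 0.61, with a fit of -0.41 ± 1.18 (SE). Among the kinases, Pdk3 was near the median at -0.72, 0.22 and -0.61, Pdk2 was at -3.03 on replicate 1 and at the array median on replicate 2, and Pdk1 and Pdk4 had 1 value each, of 1.70 and 2.19. Pcx had 1 value, of -0.07.

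The list of cycle enzymes was divided at 12 months, with 6 of its 9 fitted genes above 0 and 3 below and a median of 1.45. Idh3b was at 2.64, 2.44 and 2.45, all above the median (mean 2.51 ± 0.11, SD, n = 3), and the fit gave 2.56 ± 0.72 (SE, limma unadjusted p = 0.00473, adjusted p = 0.147). Idh1 was at 2.24, 2.04 and 0.34, where the value of replicate 3 comes from its second probe and the others from the first, and the fit gave 1.45 ± 0.82 (SE, limma adjusted p = 0.381). Idh2 was at 2.14 and 2.42, Idh3a at 2.74 and 2.06, and Idh3g had 1 value, of 3.44. Of these, the fit of Idh2 was 2.28 ± 0.93 (SE, limma adjusted p = 0.246). Cs was at 2.78 and 1.80, Fh1 at 1.45 and 2.72, Mdh1 at 1.68 and 2.27, Mdh2 at 1.93 and 1.11, and Suclg1 at 0.32 and 1.67. Below the median was Suclg2, the GTP-forming beta subunit of succinate-CoA ligase, at -3.16 and -1.57, each from a different probe. Its fit was -2.56 ± 1.13 (SE, limma adjusted p = 0.277). With unlisted values set to a deposited ratio of 0 its fit was 0.13. Sucla2, the ATP-forming beta subunit, which pairs with Suclg1 in place of Suclg2, was scattered, at 3.81, -1.22 and -2.45. Dlst, E2 of the oxoglutarate dehydrogenase complex, was at 0.91, -2.14 and -0.75, Aco1 at -0.11 and -1.61, and Ogdh had no value. Got1 was at 4.30 and 2.85, with a fit of 3.14 ± 1.19 (SE, limma adjusted p = 0.222), and Got2 at 0.20 and 2.12. At an unadjusted limma p under 0.05, 7 of the 20 genes were above 0 (Pgam1, Pdha1, Pdhb, Dld, Idh2, Idh3b and Got1) and none below, where the shares over all genes were 15.4% and 2.79%.

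Over both ages, 7 genes were listed on all 6 genotype arrays, and 5 of them (Pgam1, Pdha1, Pdhb, Idh1 and Idh3b) were above the array median on every one, where 23.0% of 1135 genes were. None was below it on every one, where 1.94% were. As deposited, 3 of the 7 were above 0 on all 6 and none below, where 19.3% and 3.88% of all were. Centred on abundant transcripts the same 3 were above and none below, where 10.4% and 11.5% were. These 3 are Pgam1, Pdha1 and Idh3b. The smallest of their 6 values was 0.57 for Pgam1, 1.50 for Pdha1 and 0.74 for Idh3b as deposited, and 0.02, 0.70 and 0.36 centred on abundant transcripts. Pgam1 therefore lay barely above the abundant transcripts on its lowest array. Pdhb was at -0.49 on 1 array as deposited, and Idh1 at -1.38.

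The difference between the ages, the genotype effect at 12 minus that at 3 months, was tested in the same fit, and limma called 0 of 3944 genes at an adjusted p of 0.05 and had 374 at an unadjusted p under 0.05. Idh3b differed by 0.05 ± 1.00 (SE, limma unadjusted p = 0.961) and Pgam1 by -0.16 ± 1.17 (SE), with errors as wide as 1.00 or more on the log2 scale. For Pdha1 the difference was -1.89 ± 1.18 (SE, limma unadjusted p = 0.143). Of the 20 genes, Pfkp was above 0 at 3.31 ± 1.30 (SE, limma unadjusted p = 0.0325) and Suclg2 below it at -3.16 ± 1.32 (SE, limma unadjusted p = 0.0418). The values of Suclg2 at 3 months come from 1 of its 2 probes. At 12 months that probe gave -3.16 on replicate 1 and the other probe -1.57 on replicate 2, so the difference compares partly different probes. With unlisted values set to a deposited ratio of 0, the difference for Suclg2 was -0.084 (limma unadjusted p = 0.935). Pfkp also mixes 2 probes. At 12 months replicate 1 rests on 1 of them and replicates 2 and 3 on the other, which alone gave replicate 1 at 3 months. Its difference was 1.18 ± 1.41 (SE, limma unadjusted p = 0.428) with no centring. Centred on abundant transcripts it was 1.89 ± 1.16 (SE, limma unadjusted p = 0.142). At an unadjusted limma p under 0.05 the shares over all genes were 6.95% above 0 and 2.54% below. Eno2 differed by 3.33 ± 1.57 (SE, limma unadjusted p = 0.0696). The median difference of the 20 was 0.12, beside 0.40 over all genes.

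**Figure D3:**
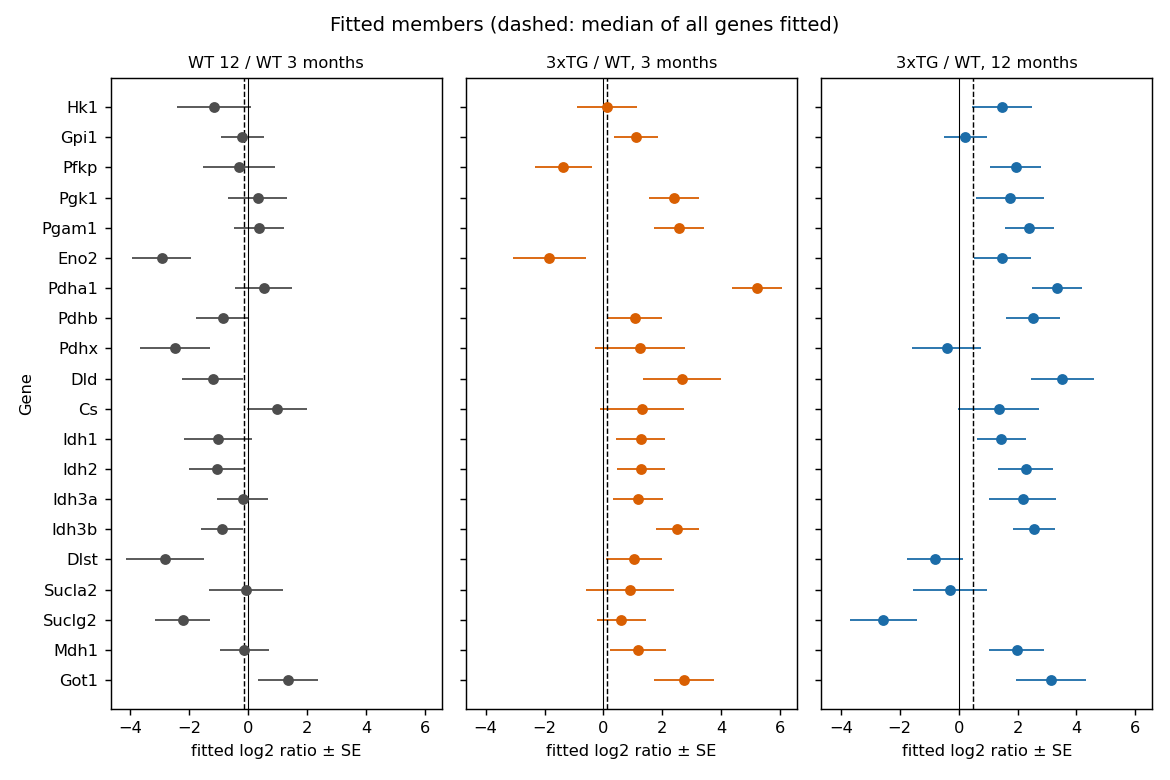
Fitted log2 ratio with its SE for the 20 fitted genes (rows, by role) in the 3 comparisons (panels); the solid line at 0 is the array median and the dashed line the median of all fitted genes. Pdha1 is at 5.22 at 3 months with the ratio read as test over reference, and no gene passes an adjusted p of 0.05.

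With ageing in WT the fitted values were mostly below 0, but the array medians lay on either side of it. The median of the 20 fitted genes was -0.59, with 5 above and 15 below 0, beside -0.15 and 46.3% above 0 over all genes. Below 0 were 8 of 9 fitted genes of the cycle list (median -0.90) and 3 of 4 of the pyruvate dehydrogenase complex (median -1.04). In glycolysis 3 of 3 of the upper and 1 of 3 of the lower steps were below 0, and Got1 was above. By array the median over the listed genes was -0.28, 0.04 and -0.57 (mean -0.27 ± 0.31, SD, n = 3 arrays), over 19, 27 and 28 genes. Of the 8 genes listed on all 3 arrays, none was above the array median on each, where 15.6% of 3539 genes were, and Idh3b was below it on each, where 23.3% were. On these arrays the range with no listed probe lies below the median. Leaving out an array also changes which genes meet the condition for the fit. The gap between the genes and all genes was -0.44 over 20 fitted genes with all arrays. It was 0.052 over 11 without replicate 2 of ageing and 0.095 over 14 without replicate 3 at 12 months. This change of sign cannot be told apart from the change of genes.

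Idh3b was at -0.64, -1.10 and -1.13 with ageing, on the same side on every array, and the fit gave -0.90 ± 0.72 (SE, limma adjusted p = 0.69). Eno2 was at -3.05 and -2.88 on replicates 1 and 3, with a fit of -2.94 ± 1.00 (SE, limma unadjusted p = 0.0208, adjusted p = 0.252). With no centring the fit of Eno2 was -1.235 (limma unadjusted p = 0.263). Suclg2 was at -2.93 and -1.51 on replicates 1 and 2, with a fit of -2.22 ± 0.93 (SE, limma unadjusted p = 0.0429, adjusted p = 0.33), and of -0.35 with no centring. These 2 were the genes at an unadjusted p under 0.05, and both were below 0, where the shares over all genes were 3.32% above and 10.8% below. Pdhx, at -3.66 and -1.32, and Dlst, at -4.10 and -1.24, were also low relative to the array median. Their fits were -2.49 ± 1.18 and -2.83 ± 1.33 (SE, limma adjusted p = 0.421 and 0.392). As deposited both lay on either side of 0, Pdhx at -2.25 and 1.02 and Dlst at -1.77 and 0.72. With no centring the fits were -0.615 and -0.712 (limma unadjusted p = 0.605 and 0.62). The ageing values of Dlst come from 1 of its 2 probes and those at 3 months from the other.
Among the genes listed on every array, Gpi1 was at 0.60, -1.07 and -0.49, Pgam1 at -0.26, 0.98 and 0.08, and Pdhb at 0.06, 0.04 and -3.65. The 3 values of Pdhb rest on different probes. On replicate 1 its probes were at -0.71 and 0.82. The value of replicate 2 comes from the second of these alone and that of replicate 3 from the first alone. Pdha1 was at -0.27 and 1.34, with a fit of 0.53 ± 0.97 (SE). Above the median on both of their arrays were Gapdh, at 2.75 and 1.95, Pdk4, at 1.40 and 1.25, Cs, at 0.08 and 1.95, Dlat, at 0.35 and 0.50, and Got1, at 1.30 and 1.55. Below it on both were Hk1 (-1.24 and -0.18), Pfkp (-0.48 and -0.29), Dld (-0.81 and -1.60), Idh1 (-0.82 and -0.66) and Idh2 (-0.42 and -1.72). The 2 probes of Pfkp disagreed, at 0.65 and -1.61 on replicate 2 and at -1.17 and 0.58 on replicate 3. Tpi1, at 0.71, -1.15 and -1.90, Idh3a, at -0.45, 1.23 and -1.22, Sucla2, at 1.03, -1.37 and 0.84, and Mdh1, at -0.28, 0.22 and -0.86, lay on either side, as did Pgk1 (-0.67 and 1.34), Pfkm (0.74 and -1.44) and Aldoc (0.86 and -0.22).
Mdh2, Got2, Suclg1 and Pfkl had 1 ageing value each, between -2.94 and -2.53, all on replicate 3. These lie just past the range with no listed probe on that array, from -2.46 to -1.46. As deposited they were -0.57, -0.63, -0.99 and -0.88. Pcx and Pdk3 had the highest single values, of 3.59 and 4.41. Ldha, Pdk1, Aco1, Idh3g and Fh1, with 1 value each, were between 0.68 and 1.12, Hk2, Pkm and Ogdh between -1.47 and -0.31, and Pdk2 had none.

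**Figure D4:**
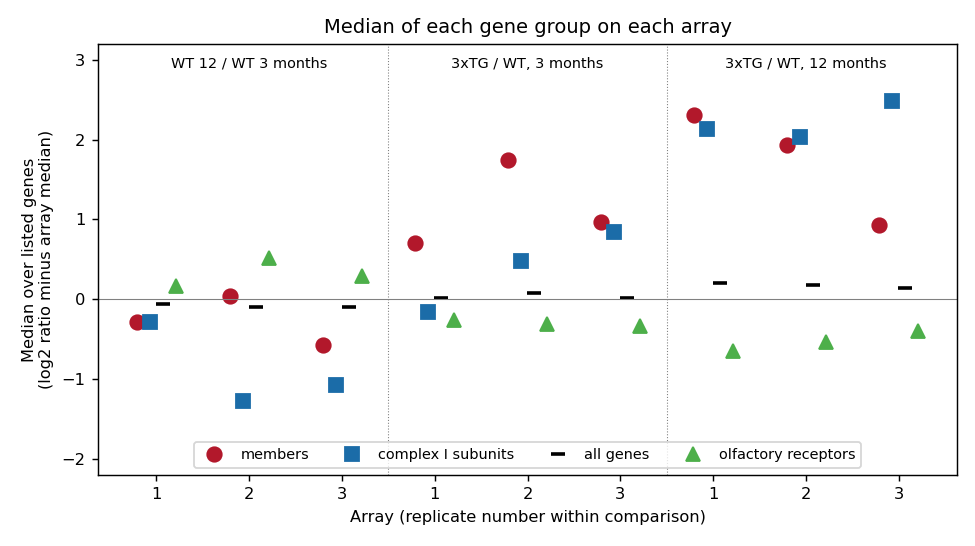
Median centred log2 ratio on each of the 9 arrays for the listed genes of these pathways, respiratory complex I subunits, olfactory receptors and all genes; points are medians over the genes listed on that array. On the 6 genotype arrays the medians of the pathway genes run from 0.71 to 2.31 and those of the olfactory receptors from -0.65 to -0.26.

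The side of the median depends on how arrays are centred. As deposited, the fitted median of the 20 genes was 1.35 for ageing, 1.52 at 3 months and 0.70 at 12 months, beside 1.74, 0.39 and -0.69 over all genes. Centred on 165 probes of respiratory chain, ribosomal and proteasome transcripts, none of them in the list, it was 0.20, 0.50 and -0.06, beside 0.52, -0.60 and -1.27. So the median for ageing turned above 0 in both settings and that at 12 months turned to just below 0 in the second, while over the 3 centrings the distance to the median of all genes was 1.08 to 1.13 at 3 months, 1.21 to 1.39 at 12 months and -0.44 to -0.32 for ageing. Centring shifts every gene of an array by one amount, so the 3 distances carry the same information. Counted by array, 7 of 8 genes were above 0 on all 3 ageing arrays as deposited and none below, where 58.7% and 8.11% of all genes were, and 2 above and 1 below centred on abundant transcripts, where 32.6% and 13.8% were. At 3 months 11 of 14 were above and 1 below as deposited (31.4% and 16.0% of all genes), and 8 above and 1 below centred on abundant transcripts (18.8% and 28.6%). At 12 months 5 of 13 were above and 2 below as deposited (18.9% and 33.5%), and 5 above and 4 below centred on abundant transcripts (11.1% and 46.7%).

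The reading of the ratio and the missing values weigh more. Read as Cy5 over Cy3, the distance was 0.14 for ageing, 0.16 at 3 months and -0.078 at 12 months, and with no centring as well 0.19, 0.21 and 0.11. The size of the distance at both ages therefore rests on the reading as test over reference. With unlisted values set to a deposited ratio of 0, all 41 genes could be fitted, and the distance was 0.58 at 3 months, 0.61 at 12 months and 0.12 for ageing.

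Other gene groups were set beside these genes. At 12 months the fitted median was 2.18 for 12 complex I subunits, 2.19 for 12 cytosolic ribosomal proteins, 1.73 for 9 subunits of complexes II to V and 1.46 for 6 proteasome subunits. In the same order the medians were 0.99, 0.22, 0.13 and 0.56 at 3 months, where all genes had 0.12. Over the genes listed on each array, more than could be fitted, the groups lay closer together on replicates 2 and 3 at 3 months. On replicates 1 to 3 the medians were -0.16, 0.48 and 0.84 for complex I and -0.92, 1.52 and 1.37 for ribosomal proteins. They were 0.29, 1.68 and 0.77 for complexes II to V and -0.19, 1.60 and 0.88 for the proteasome. The pathway genes were at 0.71, 1.74 and 0.97. Olfactory receptors, 70 fitted genes known mainly from the nose, had a median of 0.11 for ageing, -0.46 for genotype at 3 months and -0.31 for genotype at 12 months. The median of the pathway genes minus that of the olfactory receptors was 0.97, 2.05 and 1.30 on the arrays of 3 months. It was 2.96, 2.46 and 1.33 on those of 12 months, and -0.45, -0.48 and -0.86 on the ageing arrays. The part of this distance in the ratios of these genes was not tested.

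The names of the raw data also carry a V number for each array, whose meaning is not stated. The 3 ageing arrays lie in 57 to 66, and each genotype comparison has 1 array there and 2 in 86 to 91. Within the first set the median of the pathway genes was 0.71 at 3 and 2.31 at 12 months, and within the second 1.36 and 1.43. Pdha1 was at 3.92 and 5.79 at 3 months in the first and second set and at 3.92 and 2.99 at 12 months, Pgam1 at 0.71 and 3.21 and at 2.33 and 2.19, and Idh3b at 1.51 and 2.96 and at 2.64 and 2.45. The side was the same in both sets for each of these.

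Genes of neighbouring routes were taken from lists of the pathways; 0 passed the adjusted limit. Of the glucose, lactate and pyruvate carriers, 2 of 9 with a probe were fitted, and both are subunits of the mitochondrial pyruvate carrier. Mpc1, annotated as Brp44l, was at 3.80, 6.07 and 4.24 at 3 months and at 2.05, 2.24 and 3.18 at 12 months, above the array median on all 6 arrays, with fits of 4.80 ± 0.93 (SE, limma unadjusted p = 0.000513, adjusted p = 0.091) and 2.69 ± 0.93 (SE, limma adjusted p = 0.169). Mpc2, annotated as Brp44, was at 1.06, 1.62 and -1.33 at 3 months and at 2.68, 1.30 and 2.48 at 12 months, where the fit was 2.08 ± 0.86 (SE, limma adjusted p = 0.237). Replicate 3 at 3 months was the sole genotype array with either subunit below the median.
Of the malate-aspartate shuttle, anaplerosis and glutamate list, 4 of 13 were fitted. Gpd2, the mitochondrial glycerol 3-phosphate dehydrogenase, was at -3.36, -2.84 and -1.06 with ageing, at -3.08, -0.54 and 0.71 in 3xTG at 3 months and at 4.06, 2.86 and 3.32 in 3xTG at 12 months. Its fits were -2.48 ± 0.93, -0.92 ± 0.93 and 3.41 ± 0.93 (SE, limma adjusted p = 0.259, 0.642 and 0.147). The first and the last of these rest on the same older WT mice, as test in ageing and as reference in the genotype comparison. Slc25a11, the oxoglutarate carrier, was fitted at 2.27 ± 0.88 at 3 months and 2.42 ± 1.17 at 12 months (SE, limma adjusted p = 0.249 and 0.304), and Glud1, glutamate dehydrogenase, at 2.51 ± 0.96 at 12 months (SE, limma adjusted p = 0.213). Me2, the mitochondrial malic enzyme, was fitted at -1.89 ± 1.54 (SE) at 3 months. Of the other isozymes 1 of 19 was fitted, Eno3, the muscle enolase, at 0.56, 0.39 and -1.64 in the 3 comparisons, and of gluconeogenesis and glycogen 1 of 12, Fbp1, at 1.88, -0.62 and -0.98. None of the 7 pentose phosphate genes was fitted. Of the regulators 3 of 12 were: Hif1a, the hypoxia-inducible factor, at 2.64 ± 1.41 and 2.14 ± 0.94 (SE) in the genotype comparisons, Vhl, which marks it for decay, at -2.60 and 0.76, and Egln1, the oxygen sensor that acts before Vhl, at 2.05 and -1.70.

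Few markers of cell types could be fitted, and they did not take a common side. Over the arrays, the median of the neuronal list ran from 0.22 to 1.95 at 3 and from -0.24 to 2.03 at 12 months, that of the astrocyte list from -1.11 to 1.18 and from -0.16 to 1.78, that of the oligodendrocyte list from -0.39 to 0.64 and from 0.29 to 1.02, and that of the microglial list from -1.50 to 0.91 and from -0.06 to 0.95. With ageing the neuronal list ran from -0.81 to 0.35 and the oligodendrocyte list from -1.56 to -0.83. Of 11 neuronal markers with a probe 3 were fitted: Syt1, a synaptic vesicle protein, at -2.74, 2.22 and 3.18 in the 3 comparisons, Snap25 at 2.52, 1.23 and -0.07, and Map2 at 0.43, -1.69 and -2.43. Of 10 astrocyte markers 3 were, with medians of 0.79, 0.43 and -0.37, of 10 oligodendrocyte markers 4, with -1.05, -0.24 and 0.59, and of 11 microglial markers 2, with 0.36, 0.74 and -1.50. At 12 months the astrocyte markers were divided, with S100b at 4.18 ± 1.23, Gfap at -1.22 ± 1.69 and Sox9 at -0.37 ± 0.72 (SE). So were those of oligodendrocytes, with Mbp, a myelin protein, at 3.13 ± 0.74 (SE, limma adjusted p = 0.138), Opalin at 1.48 and Olig2 at -0.30. The microglial Csf1r and Tmem119 were at -1.23 and -1.76 and Ttr, of the choroid plexus, at -3.45 ± 0.83 (SE, limma adjusted p = 0.144). The endothelial list ran from -0.16 to 0.29 and from -2.24 to 0.84 in the genotype comparisons and the choroid plexus list from 0.19 to 0.92 and from -0.60 to 0.92. Pecam1, the 1 fitted endothelial marker, was at 1.01, -1.42 and -0.96. The part of cell composition in the ratios of the pathway genes was not tested.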

How the data were processed

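RNA from one hippocampus of each of 8 female mice was amplified and hybridised in pairs to 9 two-colour arrays, per the labels' protocols. The values are the authors' deposited ratios, read as log2 of test over reference; for scale, background correction, dye normalization and filter the sources used here say nothing. The number of mice, 2 per group and reused between arrays, limits the precision. Of 29922 probes, 21020 had 1 gene symbol and 8902 none; 2728 of 16675 symbols were updated to RefSeq names (GRCm38.p6) and 42 kept as annotated. Arrays were centred on their median and probes of a gene averaged. limma (3.58.1, R 4.3.3) fitted 1 coefficient per comparison and a dye term over all 9 arrays by generalised least squares, with covariance between arrays that share a mouse (variance ratio 0.112, from 516 complete genes), for 3944 genes listed on at least 2 of 3 arrays of every comparison; adjusted p-values are Benjamini-Hochberg over these, at 0.05. The fit was tested on simulated data. The p-values measure the spread between arrays, of which 3 are technical by the submitters' count.

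The members of the list, the pathway and marker lists and the alternatives were chosen with earlier results of these data known, and the motifs partly after the promoters were seen. Values on every array were given by rule for genes listed on all 9 arrays and, in each comparison, for genes of one sign on its 3 arrays (beyond 8, those of smallest p, and unfitted genes of largest mean); other genes are given to account for the whole list. Of other lists, up to 3 fitted genes of smallest p per comparison were named. In all, 23 alternatives were tried, of which 9 leave out an array.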

Additional observations from a re-analysis of the deposited data

How the results depend on the processing

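Read as test over reference, the 16 gene results at a limma unadjusted p under 0.05 kept their sign over the alternatives. Their size did not hold: Suclg2 in ageing was -0.35 with no centring, and its difference between ages -0.084 with unlisted values set to 0. Over all 23 alternatives there were 303 values for these results. Of these, 15 reversed, all of them in the alternatives read as Cy5 over Cy3. In that reading Got1 at 3 months was -0.75. At 12 months Dld was -0.048, Got1 -1.50, Idh3b -0.33, Pdhb -0.19 and Pgam1 -0.10; with no centring as well Dld was -0.75, Idh2 -0.28, Idh3b -0.29, Pdhb -0.031 and Pgam1 -0.02. The difference between ages was then -2.04 and, with no centring, -2.28 for Pfkp, and 1.97 and 3.35 for Suclg2.

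The median of the 20 genes was 1.35 for ageing, 0.70 at 12 months and -1.37 for the difference with no centring; 0.20, 0.50 (3 months), -0.058 and -0.92 centred on abundant transcripts; 0.32 for ageing, 0.085 at 3 and -0.26 at 12 months read as Cy5 over Cy3; and 0.54 and -0.026 in that reading with no centring. With genes listed on all 3 arrays, 4 of the 20 were fitted, and their median at 3 months was 1.81. With unlisted values set to 0, 41 genes were fitted, and their median was -0.999 for ageing and 0.30 at 3 months. The gap to the median of all genes was 0.14, 0.16 and -0.078 in the Cy5 over Cy3 reading, 0.19, 0.21 and 0.11 in it with no centring, and 0.12 for ageing and 0.61 at 12 months with unlisted values set to 0.

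limma called 0 genes in the fits reported. For ageing it called 45 without the dye term, 35 with independent arrays, 17 with genes listed on all 3 arrays and 239 with unlisted values set to 0; at 3 months 11, 23, 27 and 6, and 47 with the trended robust variance; at 12 months 20 with genes listed on all 3 arrays. Of the 20 genes 1, Pdha1, was called at 3 months in 3 of these settings. Here and above the cause was not tested.

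Leaving out each array in turn left 11 to 15 of the genes in the fit. The median then ran from -0.999 to -0.002 for ageing, 1.06 to 1.55 at 3 months, 1.48 to 2.40 at 12 months and -0.65 to 0.25 for the difference. In the same order the gap ran from -0.83 to 0.095, 0.89 to 1.31, 0.93 to 1.66 and -0.81 to -0.13, and 0 genes were called. Same-numbered arrays correlated at -0.064 to 0.168, so the numbers do not pair the arrays; with a replicate block (14 of the genes fitted) the medians were -0.54, 1.44, 1.95 and -0.17, with 0 calls.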
